A study of Mus musculus with 22 samples.

Results

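Regulatory T cells (Treg) restrain other T cells, and the transcription factor Foxp3 sets much of the programme by which they do so. Scurfy mice lack functional Foxp3 and develop fatal autoimmunity. The data come from 2 populations with a working FOXP3 gene and from a population without one, all recovered from such mice. The comparison described here sets the mean of both FOXP3-competent populations, each weighted alike, against the third. It uses 22 of the 22 libraries. A gene counted as shared when the combined comparison called it and when each population on its own differed from the third by a log2 fold change of at least 1 in that direction.

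The FOXP3 group held scurfy CD4+ T cells carrying a vector with human FOXP3 and LNGFR, a truncated nerve growth factor receptor that serves as a sorting handle. The LNGFR group held such cells with the reporter vector alone. The WT Treg group held transferred CD4+CD25+ cells that carry the CD45.1 allele, and the titles call them WT.Treg. All libraries are labelled C57BL/6, lymph node and Scurfy - FOXP3 KO, the WT Treg ones included, so that genotype label describes the recipients there. Recipients of all groups were scurfy mice given cyclophosphamide at 50 mg/kg at an age of 10 days, received the cells on day 14, and then human IL-2 at 1000 IU/g, daily for 5 days and weekly after that. On day 50, sorts of 1000 CD45.1 or LNGFR+ cells were made for each library. The donor, the vector and the sorting marker therefore all differ between WT Treg and LNGFR cells. Titles give 2 libraries for each code. The pair was summed, which left 5 FOXP3 codes (F1, F2, F5, N2, N3), 3 LNGFR codes (G1, G2, G3) and 3 WT Treg codes (E2, G4, L1). The labels do not call a code a mouse, and p-values here describe variation among codes, which may be partly technical. LNGFR codes all carry the letter G, as does WT Treg code G4, and FOXP3 codes carry F or N. Between FOXP3 and LNGFR cells the vector and whatever these letters stand for cannot be told apart.

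Summed counts ran from 8344444 to 10376164 in FOXP3 codes, from 3109515 to 7881352 in LNGFR codes and from 1154626 to 7088371 in WT Treg codes. Both libraries of E2 and the second library of G1 stood apart, with 332570 to 641980 counts and 29.1% to 58.7% of them on repeat-derived gene models of the Gm10800 family, against at most 4.5% elsewhere. The 12 CD4 T cell markers were detected in every group and summed to 3666 CPM (counts per 1000000 of the library, scaled by edgeR's TMM factors) in E2 and to 5464 to 9627 CPM in the other codes. B-cell markers summed to 9736 CPM in N3 and to 1080 to 3825 CPM elsewhere. In WT Treg codes the sum was mostly Ighm, with 3473 of 3825 CPM in G4. Cd79a stood at 994 CPM in N3 and 560 CPM in G1 against 15.8 to 107 CPM in the other 9 codes. Plasma-cell markers summed to 2042, 809 and 3726 CPM in LNGFR codes G1, G2 and G3, 464 to 1091 CPM in FOXP3 codes and 249 to 669.8 CPM in WT Treg codes. Ighg1 alone gave 1248 CPM of this sum in G1, 141 CPM in G2 and 2876 CPM in G3. The part of B cells and plasma cells in the results was not tested. In such sorted pools, fewer cells that express a gene and less RNA per cell cannot be told apart.

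Foxp3 itself, on chromosome X (7573644 to 7595245, GRCm38), was the check of the labels. Its mouse transcript stood at 42.7, 72.7 and 143 CPM in LNGFR codes G1, G2 and G3. The FOXP3 codes F1, F2, F5, N2 and N3 stood at 218, 313, 217, 232 and 162 CPM, and the WT Treg codes E2, G4 and L1 at 704, 1581 and 1630.1 CPM. The 3 groups did not overlap, with the vector-made cells between the others. The combined log2 fold change was 2.66 ± 0.45 (SE; edgeR quasi-likelihood adjusted p = 0.0107). The component was 1.40 in FOXP3 (adjusted p = 0.21) and 3.92 in WT Treg (adjusted p = 0.00191). That is 0.36 of the WT Treg change, and FOXP3 and WT Treg themselves differed by edgeR's test, with a log2 difference of -2.52 ± 0.40 (adjusted p = 0.0192). The vector carries the human gene, and whether reads from it reached the mouse row was not tested. The Foxp3 call was lost without G2, G4 or L1. Mouse Ngfr, whose human relative is the reporter, was at most 4.57 CPM in any code and did not pass the filter on low counts.

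Across 15462 genes tested, edgeR called 71 higher (0.459%) and 131 lower (0.847%) in the combined comparison, 202 in all (1.31%). Of these, 57 higher (0.369% of genes tested) and 108 lower (0.698%) were shared. A further 12 higher and 15 lower genes met neither this rule nor that for genes carried by 1 population. The components share the LNGFR codes, so a high or low LNGFR value moves both. Among the 57 shared higher genes, edgeR called 21 in FOXP3 against LNGFR and 48 in WT Treg against LNGFR. Both numbers include 14 genes called in each, and 2 were called in neither. Among the 108 shared lower genes edgeR called 53 in FOXP3 and 61 in WT Treg. Both include 35 called in each, and 29 were called in neither. In 54 of the 57 every FOXP3 and WT Treg code lay above every LNGFR code, where 1.62% of all genes tested did. In 96 of the 108 every one lay below, against 1.98% of all genes. The shared genes were selected by the same codes, so this separation is largely built in and adds no support.

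How far the vector-made cells went was described by the fraction of the WT Treg log2 fold change that the FOXP3 group reached, called partial under 0.75, full from 0.75 to about its reciprocal, and larger above that. Leaving aside genes with 3 counts or fewer in a group, 25 of 55 shared higher genes were partial, 24 full and 6 larger in FOXP3. Of 96 shared lower genes, 52 were partial, 38 full and 6 larger in FOXP3. These are classes of point values. The direct test of FOXP3 against WT Treg called 40 of all 15462 genes (0.259%), and 3 of the 57 and 5 of the 108. The 3 were Foxp3, Gpr83 and Itgb8, and the 5 were Tnfsf8, Il4, Stc2, Ltb4r1 and Gm17745. Each of the 8 was partial. For all other shared genes a difference between both populations was not shown, which does not make them alike.

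**Figure D1:**
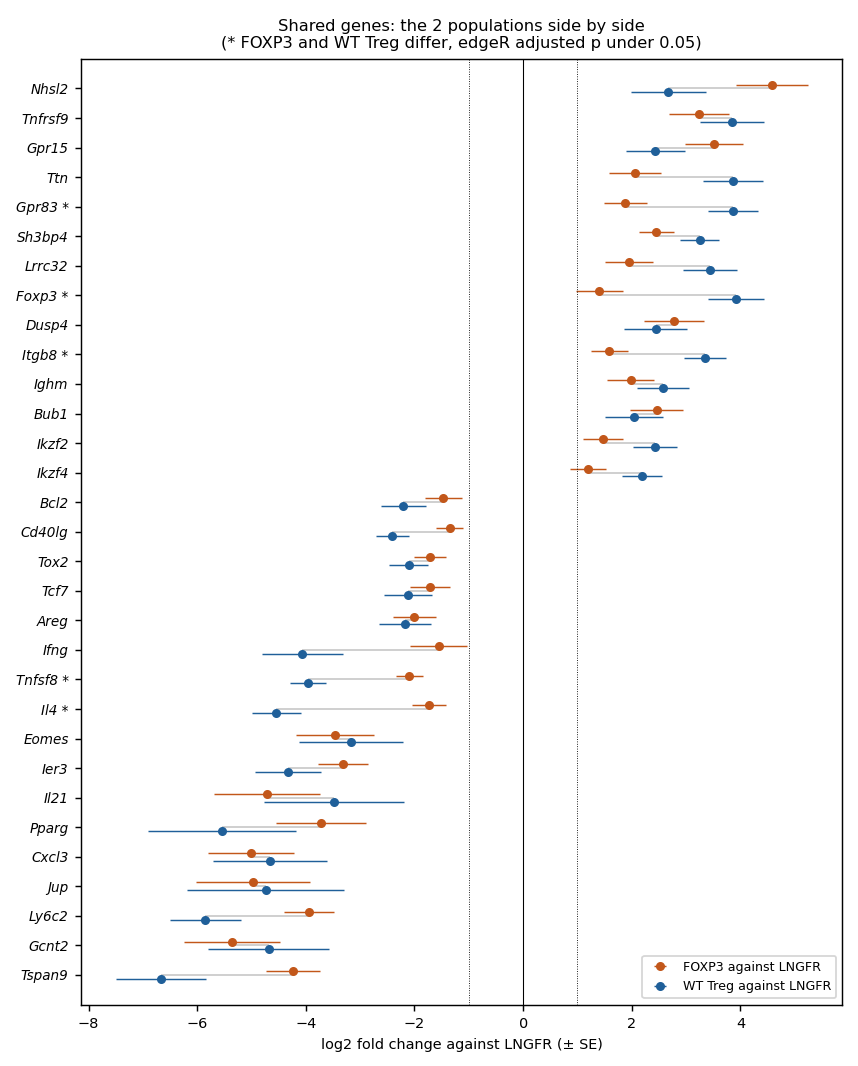
Log2 fold change against LNGFR of shared genes on a list or with the largest changes (x axis, ± SE), for FOXP3 in orange and WT Treg in blue; dotted lines mark a log2 fold change of 1 and asterisks genes whose FOXP3 and WT Treg values differ by edgeR's test. Genes with 3 counts or fewer in a group, among them Il5, Ccl24, Il13, Foxb1 and Sostdc1, are not drawn. Foxp3 stands at 1.40 in FOXP3 and 3.92 in WT Treg, while Tnfrsf9 stands at 3.23 and 3.84.

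The counts depended on single codes. Without both libraries of E2 and the second of G1, edgeR called 149 higher and 231 lower, of which 114 and 183 were shared. These kept 53 of the 57 and 102 of the 108. The class stayed the same for 54 of the 57 and 89 of the 108. FOXP3 and WT Treg then differed for 3 shared higher and 10 shared lower genes. Without codes E2, G1 and N3 the calls were 784 higher and 621 lower, with 307 and 291 shared. Of shared higher genes 28% were then partial, against 45.6% with all codes, and of shared lower genes 48.1% against 50.9%. In that setting FOXP3 and WT Treg differed at 85 of the 307 and 40 of the 291. Leaving out G2 gave 3 higher and 47 lower genes, G3 10 and 46, L1 13 and 51, and G4 18 and 63. Without N3 there were 160 higher and 203 lower, and without E2 150 and 229. The higher count was 47 without F1, 38 without F2, 46 without F5 and 45 without N2. With the 8 FOXP3 and WT Treg codes as 1 group, each weighted alike, 17 were higher and 51 lower, and the calls of Foxp3, Gpr83, Itgb8, Lrrc32 and Il4 were among those lost. DESeq2 called 269 higher and 305 lower, which moves the share of higher calls up.

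**Figure D2:**
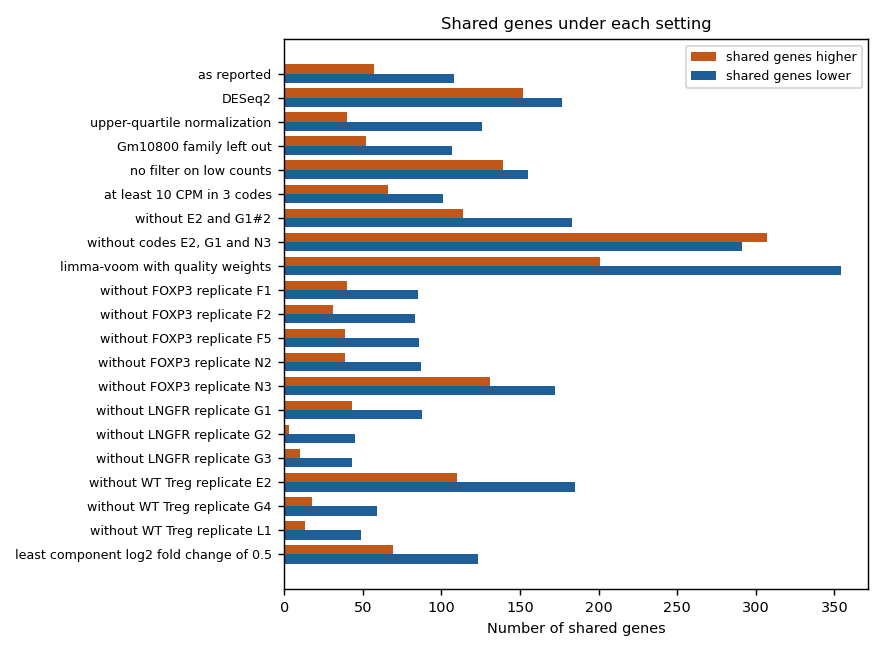
Number of shared genes higher (orange) and lower (blue) under each setting (rows). The counts as reported are 57 and 108, and without G2 only 3 shared higher genes remain.

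At an edgeR adjusted p under 0.05 with all codes, genes of Treg identity were the best represented of the lists among genes higher in both populations. Of 32 such genes, all tested, 8 were higher and 1 lower, against 0.459% and 0.847% of all genes, and the list's median combined log2 fold change was 0.80 against 0.06 for all genes. The list was chosen with earlier results of these data known, so its direction is no independent evidence. Without E2 and the second library of G1 it held 11 higher, with Il2ra, Itgae and Tnfrsf1b added, and 19 without codes E2, G1 and N3. Mitosis and replication genes led by some other measures. At an unadjusted p 17 of 25 were higher, against 14 of the 32, and with limma 17 against 13. DESeq2 called 4 against 11. Without codes E2, G1 and N3 edgeR called all 25 higher.

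The receptors among them were Tnfrsf9 and Gpr83. Tnfrsf9 encodes the costimulatory receptor 4-1BB (chromosome 4, 150914562 to 150946102). LNGFR codes stood at 9.75, 18.2 and 23.1 CPM, FOXP3 codes at 232, 161, 195, 136 and 87.3 CPM, and WT Treg codes at 69.8, 346 and 321 CPM. The FOXP3 and WT Treg ranges overlapped, E2 being the lowest of the 8, and all 8 lay above LNGFR. The combined log2 fold change was 3.54 ± 0.55 (edgeR adjusted p = 0.00621), with components of 3.23 in FOXP3 and 3.84 in WT Treg, both called (adjusted p = 0.0187 and 0.00615). The gene was full, at 0.84 of the WT Treg change. Gpr83, a G protein-coupled receptor abundant in Treg (chromosome 9, 14860210 to 14870789), stood at 13.8, 11.5 and 13.9 CPM in LNGFR codes. It reached 78.2, 45.8, 33.6, 29.9 and 53.6 CPM in FOXP3 and 96.1, 265 and 204 CPM in WT Treg codes, again without overlap of any 2 groups. It was partial at 0.49, and FOXP3 was lower than WT Treg by a log2 difference of -1.98 (edgeR adjusted p = 0.036). The Tnfrsf9 call was lost without G2 or G3 and the Gpr83 call without G2.

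Lrrc32 and Itgb8 act together on latent TGF-beta, the former as GARP, which holds it at the Treg surface, and the latter as the integrin chain that helps release it. Lrrc32 stood at 16.1, 38.7 and 39.9 CPM in LNGFR codes, at 87.1, 209, 127, 112 and 76.1 CPM in FOXP3 codes and at 203, 454 and 380 CPM in WT Treg codes. All 8 codes lay above LNGFR, and E2 with 203 CPM lay below F2. Its combined log2 fold change was 2.69 ± 0.45 (edgeR adjusted p = 0.00988), with components of 1.94 in FOXP3 and 3.45 in WT Treg. Itgb8 stood at 5.38, 3.2 and 4.79 CPM in LNGFR, 9.86, 20.9, 15.3, 10.9 and 9.25 CPM in FOXP3 and 55.3, 39.9 and 40.6 CPM in WT Treg codes. No 2 groups overlapped. Itgb8 had a combined log2 fold change of 2.46 ± 0.34 (edgeR adjusted p = 0.0031), was partial at 0.48 and differed between FOXP3 and WT Treg (adjusted p = 0.0275). The call of Lrrc32 was lost without G2, G3 or L1. That of Itgb8 was kept without any single code.

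Among 23 transcription factors that partner FOXP3, edgeR called 2 higher, Ikzf2 and Ikzf4, against 0.459% of all genes. It called no member lower, against 0.847%, where 2 were lower at an unadjusted p, 1 with DESeq2 and 2 with limma. Ikzf2 and Ikzf4 encode the Ikaros-family factors Helios and Eos. Ikzf2 stood at 74.6 to 147 CPM in LNGFR, 200.4 to 455 CPM in FOXP3 and 378 to 763 CPM in WT Treg codes. Ikzf4 stood at 39.3 to 50.6, 72.3 to 163 and 132 to 260.2 CPM. Both were partial, with log2 fold changes of 1.47 in FOXP3 and 2.43 in WT Treg for Ikzf2 and 1.19 and 2.18 for Ikzf4. Neither FOXP3 component was called by edgeR (adjusted p = 0.109 and 0.156), and both combined calls (0.0199 and 0.0225) were lost without any one of G1, G2, G3, G4 and L1.

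Dusp4, a phosphatase that switches off MAP kinases, stood at 7.4, 6.88 and 3.36 CPM in LNGFR codes. FOXP3 codes ran from 23.1 CPM in N3 to 69.2 CPM in N2, and WT Treg codes stood at 10.5, 23 and 55 CPM. E2 was the lowest of the 8 and still above LNGFR. The gene was full, with components of 2.78 and 2.44 (combined edgeR adjusted p = 0.0306), and the call was lost without any one of F2, F5, G1, G2, G3, G4 and L1. Il2ra, Itgae and Tnfrsf1b, which encode CD25, the CD103 chain and TNF receptor 2, were not called with all codes (edgeR adjusted p = 0.118, 0.0886 and 0.124), although in each every FOXP3 and WT Treg code lay above every LNGFR code. For Itgae the components were 2.18 in both populations. Il2ra, Itgae and Tnfrsf1b, and also Rgs1, were chosen for description after their values were seen. Rgs1, a regulator of G protein signalling and the list's lower member, stood at 1283 to 1936 CPM in LNGFR, 433 to 875 CPM in FOXP3 and 263 to 552 CPM in WT Treg codes. Its call was lost without G2, G3, G4 or L1.

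**Figure D3:**
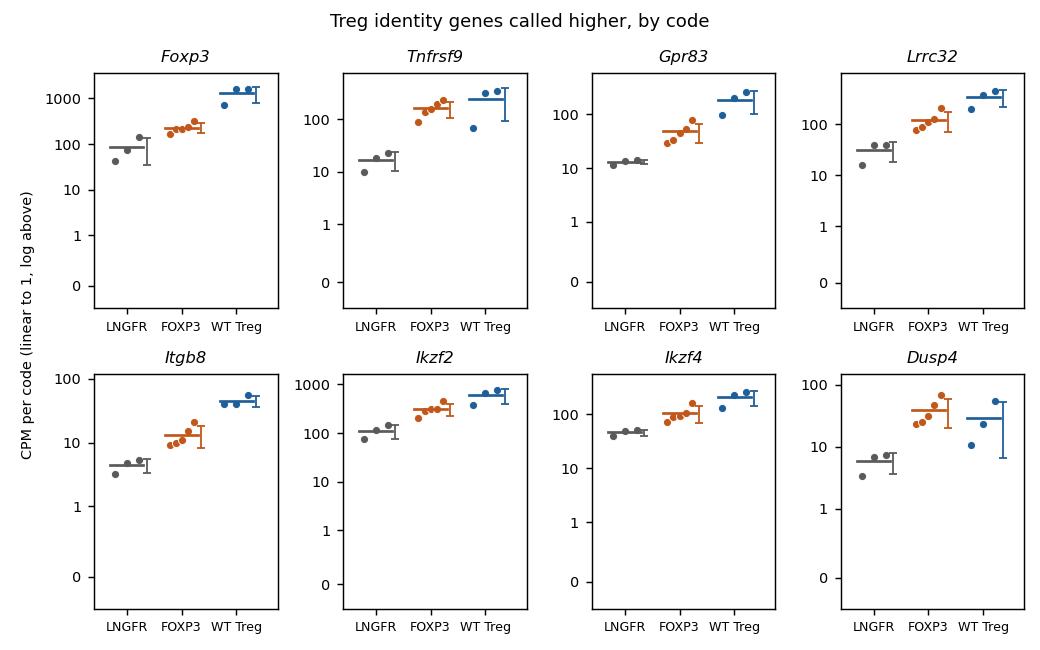
CPM of the 8 Treg identity genes called higher (y axis, linear to 1 and log above), by group. Points are codes in order of value, lines group means and bars ± SD over 3 LNGFR, 5 FOXP3 and 3 WT Treg codes; in Foxp3, Gpr83 and Itgb8 the FOXP3 points lie between the other groups.

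Beyond the Treg identity list, the largest shared increases by the naming rule were in Nhsl2, Gpr15, Ttn, Sh3bp4 and Pcyt1b. Of 27 chemokine receptor and trafficking genes edgeR called 1 higher, Gpr15, against 0.459% of all genes, and 2 lower, against 0.847%. Gpr15, a receptor that directs T cells to the large intestine, stood at 1.68, 6.08 and 6.11 CPM in LNGFR, 87.7, 64.1, 58.6, 47.9 and 21.1 CPM in FOXP3 and 13.2, 37.5 and 24.9 CPM in WT Treg codes. Here 4 of 5 FOXP3 codes lay above all 3 WT Treg codes. Its log2 fold change was 3.52 in FOXP3 and 2.44 in WT Treg, and the difference between them was not called by edgeR (1.08, adjusted p = 0.262). Nhsl2 showed the same order, with 9.47 to 79.2 CPM in FOXP3, 9.54 to 18.4 CPM in WT Treg and 0.96 to 2.69 CPM in LNGFR codes.

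Sh3bp4, an adaptor of endocytosis, had the smallest adjusted p of the named higher genes. LNGFR codes stood at 1.34, 2.08 and 2.4 CPM, FOXP3 codes at 8.57, 13.8, 10.6, 13 and 9.36 CPM and WT Treg codes at 19.7, 16.3 and 21.7 CPM. The 3 groups did not overlap. The combined log2 fold change was 2.85 ± 0.32 (edgeR adjusted p = 0.00045), and it was the only one of the named higher genes called under all 20 settings tried. Pcyt1b, an enzyme of phosphatidylcholine synthesis, was full at 1.04, with 14.6 to 32.6 CPM in FOXP3, 22.4 to 28.9 CPM in WT Treg and 1.68 to 8.75 CPM in LNGFR codes. Ttn, which encodes the giant muscle protein titin, stood at 99.6 to 255 CPM in FOXP3, 273 to 916 CPM in WT Treg and 26.3 to 48.1 CPM in LNGFR codes, with E2 the highest. Without E2 and the second library of G1 its fraction was 0.69 in place of 0.53. The calls of Nhsl2 and Ttn were lost without G2 or G3, that of Gpr15 without G2, G3 or L1 and that of Pcyt1b without G2, G4 or L1.

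The shared higher genes Hpgd, Unc93a and Crybg3 were chosen after their values were seen. Hpgd, which encodes the enzyme that inactivates prostaglandin E2, had no count in any LNGFR code. Against a floor of 3 counts over the LNGFR group it was at least 11.9-fold higher in FOXP3, where F1 held 5.87 CPM and the other 4 codes 0.623 to 2.14 CPM, and at least 128-fold higher in WT Treg, with 1.32, 18.6 and 26.6 CPM. Unc93a was likewise at 0 in LNGFR and at least 22.3-fold higher in FOXP3 and 24.3-fold higher in WT Treg. Crybg3 was nearly equal in both populations, at 32.7 to 44.7 CPM in FOXP3 and 34.2 to 41.6 CPM in WT Treg against 11.4 to 14.6 CPM in LNGFR codes, with components of 1.57 and 1.60. The Hpgd call was lost without F2, G1, G2, G3, G4 or L1 and with limma, that of Unc93a without G2 or G3 and with limma, and that of Crybg3 without G2.

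Ighm and Bub1, also shared, belong to the lists of B-cell markers and of mitosis and replication genes. Ighm, the immunoglobulin heavy constant mu gene, was higher by 2.28 ± 0.42 (edgeR adjusted p = 0.0192), at 986 to 2920.1 CPM in FOXP3, 1399 to 3473 CPM in WT Treg and 381 to 477 CPM in LNGFR codes. It was the 1 called member of the 12 B-cell markers, whose median was -0.37. The median was 1.19 in FOXP3 and -1.99 in WT Treg, and without codes E2, G1 and N3 these were -0.62 and -1.77. Cd79a, a defining B-cell gene, stood at 80.6, 102, 68.7, 24 and 994 CPM in FOXP3 codes, 560.2, 107 and 99.3 CPM in LNGFR codes and 15.8, 37.2 and 15.8 CPM in WT Treg codes. WT Treg codes lay below all 3 LNGFR codes, while N3 lay above all others and the remaining FOXP3 codes lay below G2. The source of Ighm reads was not tested. Bub1, a mitotic checkpoint kinase, was higher by 2.25 ± 0.48 (edgeR adjusted p = 0.0383), and was the 1 called of 25 mitosis and replication genes. Of those, 24 had a combined log2 fold change above 0, with medians of 1.74 in FOXP3 and 0.74 in WT Treg, and 17 had an unadjusted p under 0.05. Without codes E2, G1 and N3 edgeR called 25 of 25 higher. The Bub1 call was lost without any one of 9 codes, and that of Ighm without G1, G2, G3, G4 or L1.

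Il5 had the largest decrease of the named genes. Type 2 helper cells secrete IL-4, IL-5 and IL-13, which drive IgE, eosinophils and mucus, and their genes lie close together on mouse chromosome 11. Of 14 tested genes of the type 2 list, edgeR called 6 lower (Il5, Il4, Il13, Areg, Pparg and Il10), against 0.847% of all genes. It called no member higher, against 0.459%, where 1 was higher at an unadjusted p, 1 with DESeq2 and 1 with limma. The median was -1.37, with -0.44 in FOXP3 and -2.60 in WT Treg. Without E2 and the second library of G1 the same number, 6, was lower.

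The RefSeq promoter windows (GRCm38.p6, 250 bases before to 50 after the annotated start, printed along the gene's strand) of the 3 cytokine genes are shown because these neighbours moved together. Capitals mark GATAA on either strand, 1 form of the core bound by GATA3, the master factor of type 2 helper cells. Other forms, such as GATAG, were not searched, so a window without GATAA may still hold a GATA core. RefSeq gives 2 windows for Il4. The one printed holds 1 such match, at position 16 after its start, and the other, chr11:53617289-53617588, holds no match. Il13 holds 1, at position -80. Il5 holds no GATAA in this window. Of 10629 tested genes with a window, 2157 (20.3%) hold GATAA. The motif was chosen after the values were seen, and a match is no evidence of binding. The windows are chr11:53618616-53618915 (minus strand), chr11:53634653-53634952 (minus strand) and chr11:53720544-53720843 (plus strand).
Il4: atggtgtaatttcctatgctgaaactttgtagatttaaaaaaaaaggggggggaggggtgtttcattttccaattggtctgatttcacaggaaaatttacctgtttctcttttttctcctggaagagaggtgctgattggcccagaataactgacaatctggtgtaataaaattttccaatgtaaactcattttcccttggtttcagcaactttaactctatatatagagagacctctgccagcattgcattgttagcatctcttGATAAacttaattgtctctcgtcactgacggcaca
Il13: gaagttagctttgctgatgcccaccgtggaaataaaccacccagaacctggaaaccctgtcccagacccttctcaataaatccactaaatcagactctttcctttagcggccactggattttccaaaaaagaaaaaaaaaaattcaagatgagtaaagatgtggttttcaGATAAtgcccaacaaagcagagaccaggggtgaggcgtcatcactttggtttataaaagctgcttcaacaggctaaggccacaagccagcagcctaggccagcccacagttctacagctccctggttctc
Il5: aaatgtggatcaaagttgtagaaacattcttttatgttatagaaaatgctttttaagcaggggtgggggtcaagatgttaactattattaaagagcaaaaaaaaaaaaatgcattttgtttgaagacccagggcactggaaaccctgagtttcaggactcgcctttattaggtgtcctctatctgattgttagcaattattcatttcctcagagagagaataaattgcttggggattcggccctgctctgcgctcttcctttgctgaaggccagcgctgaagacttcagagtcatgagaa

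Il5, the eosinophil growth factor, stood at 46.1, 176 and 172 CPM in LNGFR codes. In FOXP3 codes it stood at 0.235, 0, 0, 0.208 and 0 CPM, 4 counts in all, and in WT Treg codes at 1.32, 0 and 0 CPM, 1 count in all. LNGFR cells held 2671 counts. The log2 fold change was -10.33 in FOXP3 (edgeR adjusted p = 3.91e-05), and LNGFR was 2198-fold above WT Treg by pooled counts, with an exact 95% interval of 394 to 86838. The combined edgeR adjusted p was 1e-05. Il13 showed the same order at a lower level, with 13.8, 6.4 and 13.5 CPM in LNGFR, 0 to 0.539 CPM in FOXP3 (9 counts) and 0 to 0.266 CPM in WT Treg codes (2 counts, LNGFR 79.8-fold above with an interval of 21.8 to 664). Both intervals cover counting error only. Both calls held under every setting that tested the gene, 20 for Il5 and 19 for Il13.

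Il4 behaved differently in the vector-made cells. LNGFR codes stood at 119, 92.8 and 127 CPM, FOXP3 codes at 45, 29.4, 27.8, 23.2 and 44.6 CPM and WT Treg codes at 10.5, 4.37 and 3.2 CPM. No 2 groups overlapped, and FOXP3 cells were again the middle group. The combined log2 fold change was -3.14 ± 0.30 (edgeR adjusted p = 0.000219), with -1.73 in FOXP3 and -4.54 in WT Treg. The fraction was 0.38, and FOXP3 stood above WT Treg by 2.81 (edgeR adjusted p = 0.0154). Without E2 and the second library of G1 the fraction was 0.37.

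Nearby genes were counted by position, as all 14 tested genes starting within 400 kb of the Il4 start. The window is centred on a gene already called in these data, so the count is no independent evidence. Of these 14, 5 were lower, against 0.847% of all genes, and all 5 were shared: Zcchc10, Kif3a, Il4, Il13 and Il5. The other 9 had combined log2 fold changes of -0.96 to 0.69. Kif3a, Zcchc10 and Rad50 were chosen for description after their values were seen. Kif3a encodes a kinesin motor subunit (chromosome 11, 53567379 to 53601967) and ends 1015 bases from Il4 on the opposite strand. It stood at 59.9, 63.4 and 80.9 CPM in LNGFR, 24.2, 14.1, 18.9, 18.2 and 22.4 CPM in FOXP3 and 6.58, 10.2 and 12.5 CPM in WT Treg codes, with no overlap of the 3 groups. Its combined log2 fold change was -2.26 ± 0.23 (edgeR adjusted p = 0.000229). Zcchc10, a zinc finger gene that starts at -294 kb from the Il4 start, was lower by -2.65 ± 0.28 (adjusted p = 0.000289). Rad50, a DNA repair gene that lies between Il13 and Il5, was not called (-0.64 ± 0.21, edgeR adjusted p = 0.212), with 40.3 to 57.9 CPM in the 8 codes and 62.7 to 88.5 CPM in LNGFR codes. The counting is not stated to use strand, so reads past the end of one gene could be counted in a neighbour, which was not tested. Kif3a and Zcchc10 were called without any single code.

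**Figure D4:**
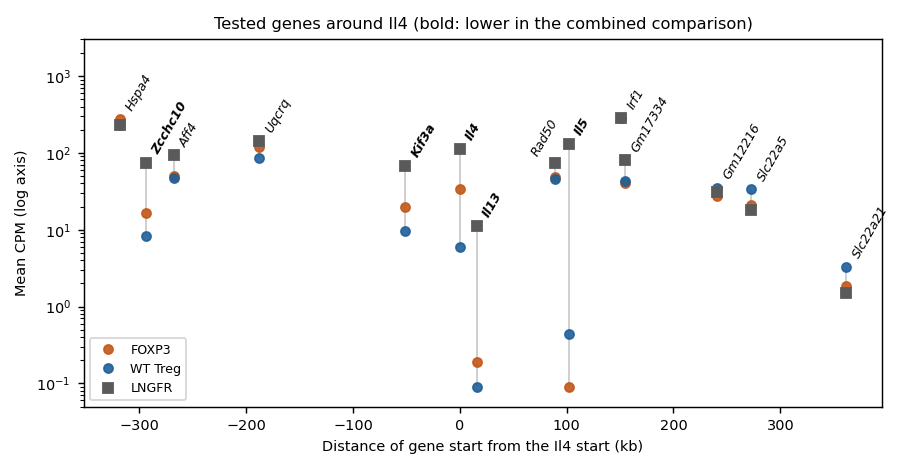
Mean CPM (log axis) of the 14 tested genes that start within 400 kb of Il4, by distance of their start from that of Il4, for LNGFR (squares), FOXP3 (orange) and WT Treg (blue). Within a gene the groups can be compared, not levels between genes; the 5 genes in bold are lower, and Rad50 between Il13 and Il5 was not called.

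The other type 2 members differed in how far they moved. Areg encodes amphiregulin, a tissue repair factor made by type 2 helper cells and by some Treg. It stood at 241, 106 and 165 CPM in LNGFR, 30.3, 18.3, 49.5, 71.8 and 42.5 CPM in FOXP3 and 30.3, 30.2 and 51 CPM in WT Treg codes. It was full at 0.92, with a combined log2 fold change of -2.09 ± 0.36 (edgeR adjusted p = 0.012). The call was lost without G1, G3 or G4, and without E2, G1 and N3 together. Pparg, a nuclear receptor of type 2 helper cells, was partial at 0.67 with all codes and at 0.44 without E2 and the second library of G1. Its value in E2 rests on 5 counts. Il10, an anti-inflammatory cytokine, was not shared. It stood at 252, 252 and 256 CPM in LNGFR, 225, 70, 188, 124 and 176 CPM in FOXP3 and 11.8, 35.4 and 42 CPM in WT Treg codes. Its components were -0.70 (edgeR adjusted p = 0.596) and -3.02 (adjusted p = 0.00775). The Il10 call was lost without G2, G3, G4 or L1, and that of Pparg without F2, G2, G3 or L1.

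Il10 and Areg are also listed among 18 suppressive mediators, of which 3 were lower and 2 higher, against 0.847% and 0.459% of all genes. The third lower one was Lag3, an inhibitory receptor, at 231 to 492 CPM in LNGFR, 156 to 312 CPM in FOXP3 and 60.5 to 102 CPM in WT Treg codes. The 2 higher were Itgb8 and Lrrc32. The list's median was 0.34. The Lag3 call was lost without F1, G2, G3, G4 or L1.

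Among 14 tested genes that Treg usually express less, edgeR called 5 lower (Tnfsf8, Il4, Cd40lg, Tcf7 and Ifng), against 0.847% of all genes. It called no member higher, against 0.459%, where 1 was higher at an unadjusted p, 1 with DESeq2 and 1 with limma. The median was -1.21. Tnfsf8 and Cd40lg encode CD30 ligand and CD40 ligand, by which helper T cells act on other lymphocytes. Tnfsf8 (chromosome 4, 63831308 to 63861347) stood at 269.7, 342 and 279.7 CPM in LNGFR, 67.4, 73.3, 65.3, 52.2 and 89 CPM in FOXP3 and 23.7, 16.2 and 18.8 CPM in WT Treg codes. These 3 groups were separate and tight. The combined log2 fold change was -3.03 ± 0.23 (edgeR adjusted p = 2.12e-05). It was partial at 0.53, and FOXP3 stood above WT Treg by 1.86 (edgeR adjusted p = 0.0154). Cd40lg followed the same order, with 57.2, 81.9 and 94.5 CPM in LNGFR, 25 to 39.4 CPM in FOXP3 and 10.5 to 17.1 CPM in WT Treg codes. Its fraction was 0.56, but the difference between FOXP3 and WT Treg was not called (1.05, edgeR adjusted p = 0.0898). Both genes were called under all settings.

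Tcf7 encodes TCF-1, a factor of naive and memory T cells. It stood at 111, 384 and 300.2 CPM in LNGFR, 68.1, 91.3, 77.3, 53.9 and 114 CPM in FOXP3 and 55.3, 74.7 and 51.9 CPM in WT Treg codes. N3 lay above G1, so the groups overlapped. The gene was full at 0.81, and its call was lost without G2, G3, G4 or L1. Ifng, the type 1 cytokine, stood at 43, 25.3 and 10.1 CPM in LNGFR, 5.03 to 17.7 CPM in FOXP3 and 0 to 2.59 CPM in WT Treg codes, with F5 above G3. It was partial at 0.38, and the call was lost without G1, G2 or L1.

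The forkhead core TGTTTAC, on either strand, was searched in the RefSeq windows because Foxp3 is a forkhead protein. It was found in 337 of 10629 tested genes with a window (3.17%), in 1 of 34 shared higher genes (2.94%, Myb) and in 6 of 80 shared lower genes (7.5%). The 6 were Akr1c13, Gm17745, Lilr4b, Mgll, Tcf7 and Vkorc1. Tcf7 is shown because it is the one of them that the lists hold. Its window is chr11:52282546-52282845 (GRCm38.p6, minus strand), and capitals mark the match on the reverse strand, which starts at position 2 from the RefSeq start.
Tcf7: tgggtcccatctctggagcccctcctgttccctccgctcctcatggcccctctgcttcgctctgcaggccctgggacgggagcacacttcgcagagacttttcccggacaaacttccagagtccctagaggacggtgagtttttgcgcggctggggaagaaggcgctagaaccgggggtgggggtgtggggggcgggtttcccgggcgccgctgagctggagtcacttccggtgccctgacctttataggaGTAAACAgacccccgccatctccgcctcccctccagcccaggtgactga

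**Figure D5:**
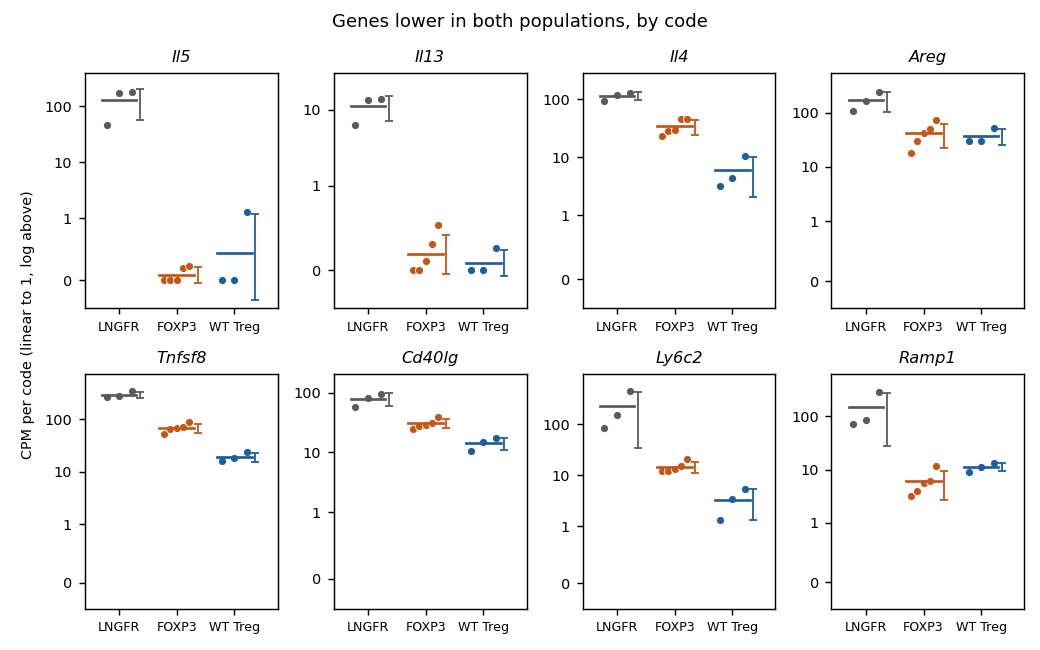
CPM (y axis, linear to 1 and log above) of 8 shared lower genes by group. Points are codes in order of value, lines group means and bars ± SD over 3 LNGFR, 5 FOXP3 and 3 WT Treg codes; Il5 and Il13 are near 0 in both populations, while in Il4, Tnfsf8 and Cd40lg the FOXP3 points lie between the other groups.

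Of 15 tested follicular helper genes 3 were lower, Il21, Sostdc1 and Tox2, against 0.847% of all genes. Il21, the cytokine that helps B cells, stood at 15.1, 17.8 and 16.9 CPM in LNGFR, 0.108 to 1.63 CPM in FOXP3 and 7.9, 0.162 and 0.4 CPM in WT Treg codes. E2 alone was high in WT Treg, and its value rests on 6 counts. Without E2 and the second library of G1 its fraction changed from 1.36 to 0.82. Sostdc1, a secreted antagonist of BMP signalling, had no count in any FOXP3 code, at least 59.3-fold under the 66 counts of LNGFR by pooled counts, and 7 counts in WT Treg. Tox2, a nuclear factor of follicular helper cells, was full at 0.81, with components of -1.72 and -2.11, and its 9.84 ± 1.19 CPM (SD, n = 5) in FOXP3 compared with 6.91 ± 2.69 CPM in WT Treg and 32.3 ± 11.8 CPM in LNGFR (n = 3 each). The Il21 call was lost without any one of 9 codes, that of Sostdc1 without G1, G2, G3 or L1 and that of Tox2 without G3. The list called no member higher with edgeR, where 3 were higher at an unadjusted p, 2 with DESeq2 and 3 with limma.

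Type 1 and cytotoxic genes included 3 lower genes of 18, Cxcr6, Ifng and Eomes, against 0.847% of all genes. No member was called higher by edgeR or DESeq2, nor at an unadjusted p, where limma called 1. Eomes, a factor of cytotoxic cells, stood at 11.1, 2.88 and 6.95 CPM in LNGFR, 0.208 to 0.871 CPM in FOXP3 and 0.323 to 2.63 CPM in WT Treg codes. Cxcr6, a chemokine receptor of tissue T cells, was lower through WT Treg. It stood at 662, 948 and 1416 CPM in LNGFR, 707, 378, 439.7, 492 and 667 CPM in FOXP3 and 21.1, 21 and 36.2 CPM in WT Treg codes. FOXP3 and LNGFR codes overlapped, and FOXP3 stood above WT Treg by 4.34 (edgeR adjusted p = 0.000802). Ccr3, the eotaxin receptor, also had a small FOXP3 component (-0.77, edgeR adjusted p = 0.683) beside -4.14 in WT Treg. The Eomes call was lost without F2, F5, or any LNGFR code, G4 or L1, and Ccr3 was lost without any one of 8 codes.

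The largest shared decreases outside these lists included genes of chemokines and of surface proteins. Ly6c2, a surface glycoprotein of activated T cells, stood at 449, 83.9 and 153 CPM in LNGFR, 15, 12.3, 13.3, 12.3 and 21 CPM in FOXP3 and 1.32, 3.4 and 5.33 CPM in WT Treg codes. Its near copy Ly6c1, chosen after its values were seen, had a combined log2 fold change of -4.25 ± 0.38 against -4.90 ± 0.43 for Ly6c2. Reads may be split between Ly6c1 and Ly6c2, so each value is uncertain. Ccl24, an eosinophil attractant, stood at 24.5, 5.44 and 16.7 CPM in LNGFR, with 8 counts in all FOXP3 and 1 count in all WT Treg codes. Cxcl3, a neutrophil attractant, stood at 21.5, 4.96 and 10.7 CPM in LNGFR, at most 0.83 CPM in FOXP3 and at most 1.32 CPM in WT Treg codes.

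Tspan9, a tetraspanin, stood at 23.5, 48 and 30.7 CPM in LNGFR, 1.53, 1.68, 1.62, 1.45 and 2.72 CPM in FOXP3 and 2.63, 0 and 0.266 CPM in WT Treg codes. Gcnt2, a glycosyltransferase, was full at 1.14. Jup (plakoglobin) and Aqp9 (a water and glycerol channel) were full at 1.05 each with all codes. Without E2 and the second library of G1, Aqp9 was partial at 0.71. In E2 Aqp9 stood at 7.9 CPM, from 6 counts, against 0.323 CPM in G4 and 0.133 CPM in L1. Foxb1, a forkhead factor, held 64 counts in FOXP3 and 1 in WT Treg against 239 in LNGFR. Jup rested most on G3, with 34 CPM against 8.07 and 9.76 CPM in G1 and G2, and its call was lost without any one of F1, F2, G2, G3, G4 and L1. Foxb1 lost its call without G2, G3 or L1, and Aqp9 without G2 or G3. Ier3, an early response gene, stood at 149, 39.4 and 79.1 CPM in LNGFR, 6.54 to 14.3 CPM in FOXP3 and 0 to 5.99 CPM in WT Treg codes, and was called under all settings. Bcl2, a survival gene of the STAT5 list, stood at 467, 723 and 466 CPM in LNGFR codes. It stood at 139 to 267 CPM in FOXP3 and 68.4 to 162 CPM in WT Treg codes. Its fraction was 0.67 with all codes and 0.77, full, without E2 and the second library of G1. Bcl2 lost its call without G2, G3 or L1.

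Receptors for peptides and lipids were also among the shared lower genes, and were chosen after their values were seen. Ramp1 and Ramp3 are accessory proteins of the receptors for the neuropeptide CGRP and for adrenomedullin. Ramp1 stood at 291, 72 and 87.4 CPM in LNGFR, 5.64, 3.91, 12, 6.12 and 3.16 CPM in FOXP3 and 13.2, 9.22 and 11.5 CPM in WT Treg codes. Its log2 fold change was -4.60 in FOXP3 and -3.77 in WT Treg, a fraction of 1.22 (combined edgeR adjusted p = 0.000298). Ramp3 was lower by -1.88 ± 0.24 (adjusted p = 0.0016). Ltb4r1, the leukotriene B4 receptor, stood at 696, 309 and 466 CPM in LNGFR, 181, 92, 81.4, 159 and 50.8 CPM in FOXP3 and 2.63, 9.38 and 13.9 CPM in WT Treg codes. The 3 groups were separate, and FOXP3 exceeded WT Treg by 3.54 (edgeR adjusted p = 0.0192). Stc2, the secreted protein stanniocalcin 2, had the same order, at 47.4 to 62.6, 14.3 to 23.1 and 4.69 to 7.9 CPM in LNGFR, FOXP3 and WT Treg codes (FOXP3 against WT Treg 1.58, edgeR adjusted p = 0.0441).

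Some calls of the combined comparison came from 1 population alone, with a log2 fold change of at least 1 there and under 0.5 in the other. Of the higher genes, Cpq and Ift80 were carried by WT Treg. Cpq, a carboxypeptidase, stood at 54, 50 and 39.7 CPM in WT Treg, 7.37 to 11.2 CPM in FOXP3 and 6.05 to 8.96 CPM in LNGFR codes. Ift80, a subunit of the ciliary transport complex, stood at 71.1, 122 and 92.6 CPM in WT Treg, 13.3 to 38.1 CPM in FOXP3 and 11.1 to 17.4 CPM in LNGFR codes. Of the lower genes, 7 were carried by WT Treg, among them Fcgrt (the neonatal Fc receptor), Chsy1 (a chondroitin synthase), Vipr1 (a receptor of vasoactive intestinal peptide) and Smap2 (an ARF GTPase regulator). Vipr1 stood at 2.63, 2.26 and 4.26 CPM in WT Treg, 10.7 to 32.3 CPM in FOXP3 and 16.1 to 35.1 CPM in LNGFR codes. Espn, an actin-bundling protein, was the 1 gene carried by FOXP3, at 6.54 to 10.3 CPM in FOXP3 against 18.4 to 23.7 CPM in WT Treg and 24.9 to 31.5 CPM in LNGFR codes. The calls of Espn and Vipr1 were lost without any one of 7 codes, those of Ift80, Fcgrt and Smap2 without any one of 8, that of Chsy1 without any one of 9 and that of Cpq without G2, G3, G4 or L1. That of Vipr1 was lost also without E2 and the second library of G1.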

How the data were processed

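RNA of 22 libraries was measured by Smart-seq. The authors deposited unnormalized counts of reads, with gene symbols in rows and libraries in columns. STAR 2.7.3a, Subread 2.0.0 and featureCounts on GRCm38 (mm10) are listed, per the submitters' processing notes. Annotation and strand setting: not given in the sources used here. Paired reads of 38 bp followed 18 PCR cycles without molecular identifiers, so the intervals and the floor reflect counting error alone.

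The 2 libraries of a code were summed. Their log2 CPM correlated at 0.437 in G1, 0.769 in E2 and 0.948 or more in the others, and chi-square values of 2.62 or more per degree of freedom show that no pair agreed within sampling noise. Genes were tested with the quasi-likelihood test of edgeR 4.0.16 (R 4.3.3; TMM, filterByExpr, robust fit) on 11 codes together. Adjusted p (Benjamini-Hochberg) under 0.05 over 15462 genes, of 55011 listed, made a call. At an unadjusted p under 0.05 there were 1855. The SE is the fitted log2 fold change over the square root of F. DESeq2 1.42.0 and limma 3.58.1 were alternatives. Positions are from GENCODE, where 15151 of the tested genes matched by symbol. Promoters are from RefSeq, where 10629 did.

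Genes were named by rule: Foxp3, Ngfr, the 12 largest shared changes per direction (at least 10 CPM in the higher groups, no overlap of codes, no gene models or receptor segments), up to 5 called members per list by smallest p, and up to 4 genes carried by 1 population per direction. Others were chosen after their values were seen, among them Il2ra, Itgae, Tnfrsf1b, Rgs1, Ly6c1, Kif3a, Zcchc10 and Rad50. The members, lists and alternatives were chosen with earlier results of these data known. The human transgene was not analysed here, and 1 gene that the rule names is not reported here.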

Additional observations from a re-analysis of the deposited data

Results flagged for a closer look

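The difference between FOXP3 and WT Treg was itself called by edgeR for 13 of the genes described. In log2 units of FOXP3 minus WT Treg, it was negative for Foxp3 (-2.52), Cpq (-2.43), Ift80 (-2.24), Gpr83 (-1.98), Itgb8 (-1.75) and Espn (-1.32). It was positive for Cxcr6 (4.34), Fcgrt (3.71), Ltb4r1 (3.54), Il4 (2.81), Vipr1 (2.71), Tnfsf8 (1.86) and Stc2 (1.58). Donor, vector and sorting marker differ between these groups and cannot be told apart.

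A single FOXP3 code stood far from the other 4 in 7 of 66 genes examined. With normally distributed values chance gives such a code in about 1 of 20 groups, a rate that need not hold for CPM at low counts. Code F2 was high in Ift80 (38.1 CPM) and Ttn (255 CPM) and low in Ly6c1 (9.22 CPM). Code N3, which held the most B-cell transcripts, was high in Ngfr (4.57 CPM), Smap2 (100.4 CPM) and Tspan9 (2.72 CPM). Code F1 was high in Hpgd (5.87 CPM).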

How the results depend on the processing

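For calls higher and lower, the counts of 71 and 131 became 269 and 305 with DESeq2, 164 and 199 with no filter on low counts, 433 and 562 with limma, 149 and 231 without E2 and the second library of G1, 784 and 621 without codes E2, G1 and N3, and 17 and 51 with FOXP3 and WT Treg as 1 group of 8 codes. With at least 10 CPM in 3 codes, 108 were higher. Shared higher and lower genes, 57 and 108, became 152 and 177 with DESeq2, 201 and 354 with limma, 114 and 183 without E2 and the second library of G1, 307 and 291 without E2, G1 and N3, and 139 shared higher with no filter. Partial shared genes, 26 and 55, became 49 and 103, and 86 and 140, in these 2 reductions, which were added after seeing the data for this count and for the lists. Leaving out 1 code gave 3 to 160 higher, 46 to 229 lower, 3 to 131 shared higher and 43 to 185 shared lower. The cause was not tested. Upper-quartile scaling moved the median of all genes from 0.06 to -0.09. Of 50 called genes named by rule, 11 stayed called under every setting that tested them, 14 without any single code, and none changed direction. No paired analysis was possible because the groups share no replicate codes. Depth was least in E2 and limits the low counts of WT Treg.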
